A study of Mus musculus with 4 samples.

Results

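The genes described here are the 10 mouse genes H2-Aa, H2-Ab1, H2-Ea-ps, H2-Eb1, Cd74, H2-DMa, H2-DMb1, H2-DMb2, H2-Ob and Ciita, which make up the MHC class II antigen presentation system and its regulator. They were chosen by symbol from the 50584 symbols counted, and all 10 were present and passed the filter on low counts, as did 15647 symbols in all. Poly(A) RNA had been sequenced from whole liver of 14-week-old wild-type male mice on chow, with 2 DBA/2J animals, an inbred strain of the H2d haplotype, and 2 C57BL/6J animals, an inbred strain of the H2b haplotype. Each library is 1 animal, and the labels name no treatment.

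MHC class II molecules are pairs of an alpha and a beta chain that show peptides from endocytosed proteins to CD4+ T cells. Mice can make I-A, from H2-Aa and H2-Ab1, and I-E, from the gene annotated as H2-Ea-ps and from H2-Eb1. Cd74, the invariant chain, fills the groove until it is degraded, H2-DM then exchanges its remnant for peptide, and H2-DO, of which H2-Ob is the beta chain, restrains H2-DM. Ciita is the coactivator without which these genes are hardly transcribed, and it is recruited by factors bound to the X and Y boxes of their promoters. In liver, dendritic cells, B cells, Kupffer cells and sinusoidal endothelial cells carry class II, whereas resting hepatocytes largely lack it. Mice of the H2b haplotype are known to carry a deletion over the promoter of the E alpha gene, and H2d mice express it.

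The reference sequence of the promoters is shown because it holds X and Y box letters in several of these genes. RefSeq promoters (GRCm38.p6, 250 bases before to 50 after a start) were listed for 6 of the 10 genes. All 6 had a Y box (GATTGG) on the gene's strand in a listed promoter, H2-DMa only in a promoter upstream of its counted exons. Of the 6, 4 had an X box (AACNNNTGA) followed by the Y box after 5 to 30 bases. In the lines that follow, capitals mark these letters, each sequence is given in the direction of transcription, and H2-Aa has the Y box alone marked.
H2-Eb1, chr17:34305763-34305827, forward strand: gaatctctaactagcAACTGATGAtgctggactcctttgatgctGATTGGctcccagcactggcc
H2-DMb1, chr17:34153084-34153149, forward strand: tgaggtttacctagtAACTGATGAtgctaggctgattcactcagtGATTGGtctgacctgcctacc
H2-DMb2, chr17:34145113-34145178, forward strand: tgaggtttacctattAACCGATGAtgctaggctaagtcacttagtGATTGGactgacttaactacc
H2-Ob, chr17:34238805-34238867, forward strand: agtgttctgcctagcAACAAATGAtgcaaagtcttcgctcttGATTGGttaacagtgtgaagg
H2-Aa, chr17:34287852-34287917, reverse strand: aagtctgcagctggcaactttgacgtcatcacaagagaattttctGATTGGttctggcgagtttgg

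The gap between the X and Y boxes was 18 bases in H2-Ob, 20 in H2-Eb1 and 21 in H2-DMb1 and H2-DMb2. On either strand, the X box letters were in 11.9% of 32851 listed promoters, the Y box letters in 16.1%, and the ordered pair in 0.125%, belonging to 39 genes. The 2 motifs share no letters within a pair. The listed promoters of H2-DMa, chr17:34122582-34122881 and chr17:34125268-34125567, lie upstream of its start in the count files, chr17:34135182. The second held the Y box letters 199 bases before its own start and no X box letters. A promoter at chr17:34135182 was not listed and was not examined. These letters were chosen with the sequences in view, and a match describes the C57BL/6J reference and not the DBA/2J sequence.

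H2-Ea-ps is annotated on the reverse strand of chromosome 17, with 3 annotated exons at chr17:34342933-34344643 (GRCm38) that add up to 686 bases. GENCODE release M21 also lists a longer transcript of 1036 bases. Reads from those of its bases that the gene model of the count files lacks were not counted. The first 100 bases of the middle exon, 1 read length at chr17:34343810-34343909, are shown as part of the transcript, whose counts were taken over all 3 exons together.
H2-Ea-ps, middle exon: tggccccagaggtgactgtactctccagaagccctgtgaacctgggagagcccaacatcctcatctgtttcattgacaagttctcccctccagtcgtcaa
No window of 100 bases of the H2-Ea-ps transcripts was found in a transcript of another gene.

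In the gene annotation of the count files (GRCm38), H2-DMa lies at chr17:34135182-34139101, H2-DMb2 at chr17:34143307-34151553, H2-DMb1 at chr17:34153072-34160230, H2-Ob at chr17:34238903-34245907, H2-Ab1 at chr17:34263209-34269418, H2-Aa at chr17:34282744-34287827 and H2-Eb1 at chr17:34305877-34316199. Values are of reads over all exons of a gene, untranslated parts included where annotated.

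Counts assigned to genes were 48096706 to 52520737 per library. Of 15516 tested genes with counts in both C57BL/6J libraries, 5.08% were at least 2-fold higher in replicate 1 than in replicate 2. For DBA/2J replicate 1 over DBA/2J replicate 2 this held for 1.35% of 15592 genes. Genes at least 2-fold higher in replicate 2 of either strain were not counted. Across all tested genes, edgeR's quasi-likelihood test called 18.2% different between the strains at a Benjamini-Hochberg adjusted p below 0.05, 9.29% higher and 8.87% lower in DBA/2J. Scaling by library totals alone, in place of trimmed mean (TMM) factors, gave 1924 higher and 1024 lower genes, against 1454 and 1388. The hepatocyte transcripts Alb, Apoa1, Ttr and Hnf4a were abundant in all libraries, with a summed level of 76797 and 73228 CPM (counts scaled to library size with TMM factors) in DBA/2J and 85943 and 75172 CPM in C57BL/6J.

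Of the 10 class II genes, 1 was higher in DBA/2J and 0 were lower by edgeR's test, against 9.29% and 8.87% of all tested genes. At an unadjusted p below 0.05 the numbers were 2 higher and 0 lower, and the share of all tested genes at that level was not counted. DESeq2 also called 1 higher and 0 lower, and over all 15647 tested genes it called 1658 higher and 1642 lower. The gene that rose was H2-Ea-ps. H2-DMb2 and Ciita lay above C57BL/6J in both DBA/2J libraries, and H2-Ob below, without passing the threshold. For 4 of the 10 genes the ranges of the strains were apart, with DBA/2J above for 3 and below for 1, where this held for 63.8% of all tested genes (32.5% above and 31.2% below). The median log2 difference over the 10 genes was -0.60, against 0.01 over all tested genes. With 2 libraries per strain, an exact permutation test of a single gene cannot give a two-sided p below 0.333, so the test fitted across all genes is used throughout.

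**Figure D1:**
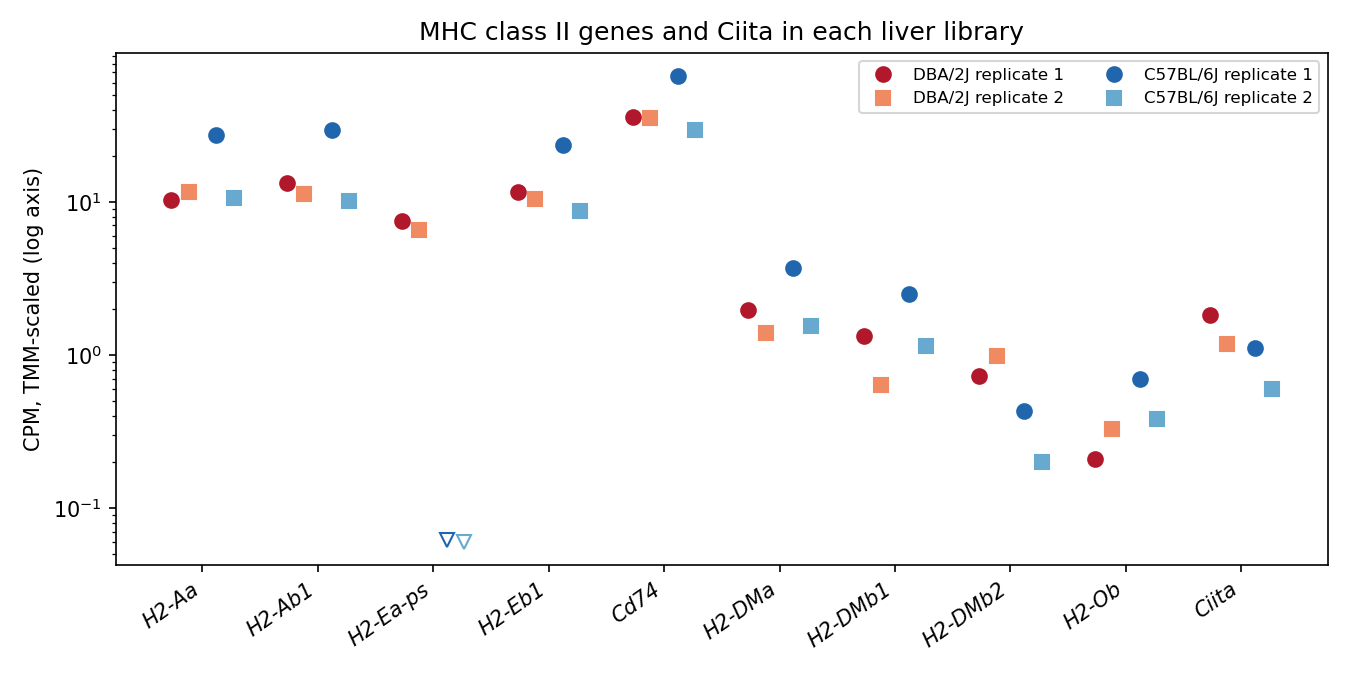
Level of each class II gene in each library, in CPM with TMM scaling on a log axis; circles and squares are replicates 1 and 2, red DBA/2J and blue C57BL/6J. Open triangles mark a count of 0, drawn at the level of 3 counts. H2-Ea-ps is seen in DBA/2J only, and C57BL/6J replicate 1 is the highest library for 7 of the 10 genes. The share of all tested genes highest in that library was not counted.

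H2-Ea-ps, the alpha chain of I-E, was counted 362 and 360 times in the DBA/2J libraries, compared with 0 and 0 in C57BL/6J. The DBA/2J libraries stood at 7.50 and 6.51 CPM, and 3 counts, taken as the limit that a zero count allows, correspond to 0.0616 and 0.0601 CPM in the C57BL/6J libraries. It was thus at least 105.7-fold higher in DBA/2J, comparing the lower DBA/2J library with the higher of these limits. The DBA/2J mean was 115-fold above the mean of the limits (edgeR adjusted p = 0.00105, higher in 2 of 2 DBA/2J libraries). With any library left out, its edgeR adjusted p ranged from 1.82e-05 to 0.0317. No other class II gene kept a call in every one of these fits. The gene passed the filter on low counts through the DBA/2J libraries alone.

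H2-Eb1, the beta chain that pairs with it, was expressed in both strains. It stood at 11.6 and 10.5 CPM in DBA/2J and 23.6 and 8.70 CPM in C57BL/6J, so that both DBA/2J libraries lay between those of C57BL/6J. The difference was -0.55 ± 0.43 on the log2 scale (SE, edgeR adjusted p = 0.417). Within DBA/2J, H2-Ea-ps counts were 64.8% and 62.2% of those of H2-Eb1. In C57BL/6J the beta chain had 1150 and 434 counts beside the alpha chain's 0 and 0.

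The I-A chains were also highest in C57BL/6J replicate 1. H2-Aa, the alpha chain, had 10.3 and 11.6 CPM in DBA/2J, compared with 27.4 and 10.6 CPM in C57BL/6J, a log2 difference of -0.79 ± 0.42 (edgeR adjusted p = 0.236). H2-Ab1, the beta chain, had 13.3 and 11.2 CPM in DBA/2J, compared with 29.3 and 10.1 CPM in C57BL/6J, a log2 difference of -0.68 ± 0.46 (edgeR adjusted p = 0.347). The strains overlapped for both genes, with C57BL/6J replicate 1 high and the other 3 libraries close together. H2-Aa counts were 77.7% and 103% of H2-Ab1 counts in DBA/2J, and 93.5% and 106% in C57BL/6J, so the balance of the chains also overlapped between strains.

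Cd74 was the most abundant of the 10 genes in each library. It had 36.1 and 35.4 CPM in DBA/2J, compared with 66.1 and 29.6 CPM in C57BL/6J, a log2 difference of -0.42 ± 0.35 (edgeR adjusted p = 0.437). The DBA/2J libraries again lay between those of C57BL/6J. Cd74 made up 42.5% and 44.4% of the counts of the 10 genes in DBA/2J, and 42.7% and 47.1% in C57BL/6J.

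The level of the classical genes therefore turned on which C57BL/6J library was used. In C57BL/6J, replicate 1 was above replicate 2 for all 9 genes with counts, by 1.83-fold for H2-Ob to 2.91-fold for H2-Ab1 with a median of 2.24-fold. For 8 of the 9, the exact 95% interval of this ratio, which covers counting error only, lay above 1. The exception was H2-DMb2, at 2.15-fold with an interval from 0.969 to 5.11. The corresponding DBA/2J ratios ran from 0.637 for H2-Ob to 2.10 for H2-DMb1, with a median of 1.13, and for 4 of the 10 genes the interval lay above 1. Summed over the 10 genes, the level was 84.8 and 79.7 CPM in DBA/2J and 155 and 62.9 CPM in C57BL/6J.

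Leaving out C57BL/6J replicate 1 turned the sign of 5 genes. The log2 difference became 0.041 for H2-Aa, 0.28 for H2-Ab1, 0.34 for H2-Eb1, 0.27 for Cd74 and 0.10 for H2-DMa, with edgeR adjusted p values from 0.0750 for Cd74 to 0.864 for H2-Aa; 24.2% of 16248 tested genes were then called, 11.7% higher and 12.5% lower. Without C57BL/6J replicate 2, by contrast, 6 genes were called lower in DBA/2J, where 29.9% of 16409 tested genes were called (15% lower and 14.9% higher). These were H2-Aa (-1.32, edgeR adjusted p = 1.57e-04), H2-Ab1 (-1.26), H2-Eb1 (-1.10), Cd74 (-0.89), H2-DMa (-1.16) and H2-DMb1 (-1.37, edgeR adjusted p = 0.0336). In each of these fits the lone C57BL/6J library is assumed to vary like the DBA/2J pair. Leaving out DBA/2J replicate 1 kept H2-Ea-ps as the single class II call, where 1.79% of tested genes were called (1.14% higher and 0.649% lower). The same held on leaving out DBA/2J replicate 2, where 1.92% were called (1.22% higher and 0.7% lower).

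**Figure D2:**
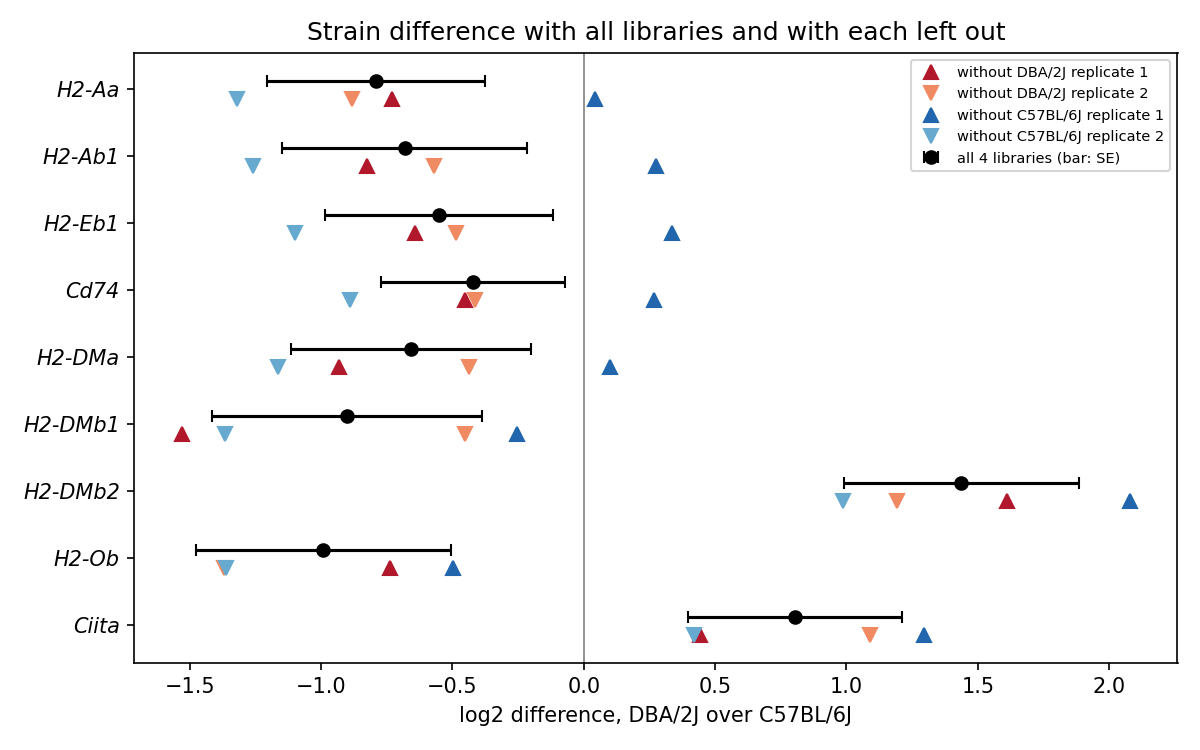
Log2 difference, DBA/2J over C57BL/6J, of the 9 class II genes other than H2-Ea-ps, with all 4 libraries (black, bar: SE) and with each library left out (triangles). Without C57BL/6J replicate 1, 5 genes cross from below 0 to above it, among them H2-Eb1 at 0.34.

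The peptide-loading genes were expressed far below the chains they serve. H2-DMa, the alpha chain of H2-DM, had 94 and 77 counts in DBA/2J (1.95 and 1.39 CPM), compared with 181 and 77 counts in C57BL/6J (3.71 and 1.54 CPM). Its log2 difference was -0.66 ± 0.46 (edgeR adjusted p = 0.355), and the strains overlapped. Of its 100-base transcript windows, 6.58% occur in the neighbouring gene Brd2. H2-DMb1, a beta chain, had 64 and 35 counts in DBA/2J, compared with 121 and 57 in C57BL/6J, a log2 difference of -0.90 ± 0.51 (edgeR adjusted p = 0.269). One DBA/2J library lay within the C57BL/6J range and the other below it.

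H2-DMb2, the second beta chain gene, differed the other way. It had 35 and 54 counts in DBA/2J (0.726 and 0.976 CPM), compared with 21 and 10 counts in C57BL/6J (0.431 and 0.200 CPM). Both DBA/2J libraries were above both C57BL/6J libraries, with a log2 difference of 1.44 ± 0.45 (unadjusted p = 0.0197, edgeR adjusted p = 0.0797). Without C57BL/6J replicate 1 it passed the threshold (2.08, edgeR adjusted p = 0.0318), and with any other library left out its edgeR adjusted p lay between 0.150 and 0.364.

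The split between the beta chain genes was read within each library, where scaling plays no part. H2-DMb2 counts were 54.7% and 154% of H2-DMb1 counts in DBA/2J and 17.4% and 17.5% in C57BL/6J. The C57BL/6J libraries agreed closely, and both DBA/2J libraries lay above them while differing from each other. The longest annotated transcripts of the pair are 96.0% identical over 1045 aligned bases, with a longest identical run of 221 bases. Of the 100-base windows of their transcripts, 179 occur in both genes, which is 11.3% of those of H2-DMb1 and 10.3% of those of H2-DMb2. Reads that fit both genes cannot be assigned, so the part of each gene in this split is uncertain. Their sum was 2.05 and 1.61 CPM in DBA/2J and 2.91 and 1.34 CPM in C57BL/6J, which overlapped.

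H2-Ob, which restrains H2-DM and is best known from B cells, was the lowest of the genes per length in DBA/2J. It had 10 and 18 counts in DBA/2J, compared with 34 and 19 counts in C57BL/6J. Both DBA/2J libraries were below both C57BL/6J libraries once scaled (0.207 and 0.325 CPM against 0.698 and 0.381 CPM), with a log2 difference of -0.99 ± 0.48 (edgeR adjusted p = 0.208). Its partner H2-Oa had 3 and 1 counts in DBA/2J and 2 and 0 in C57BL/6J, and H2-Eb2, another beta chain gene of the region, had 4 and 1 counts in DBA/2J and 0 and 3 in C57BL/6J. At this depth neither was tested.

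Ciita, at chr16:10488178-10527564, had 88 and 65 counts in DBA/2J (1.82 and 1.18 CPM), compared with 54 and 30 counts in C57BL/6J (1.11 and 0.601 CPM). The libraries of the strains did not overlap, though DBA/2J replicate 2 was close to C57BL/6J replicate 1. The log2 difference was 0.80 ± 0.41 (edgeR adjusted p = 0.220), positive with any library left out (0.42 to 1.30, edgeR adjusted p from 0.0685 to 0.690). Of its annotated exon bases, 2.11% overlap those of Dexi, and reads there go uncounted.

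Set against Cd74 in the same library, Ciita stood at 5.06% and 3.32% in DBA/2J and at 1.68% and 2.03% in C57BL/6J. The regulator was thus higher relative to Cd74 in both DBA/2J libraries. H2-DMb2 likewise stood at 2.01% and 2.76% of Cd74 in DBA/2J, compared with 0.652% and 0.678% in C57BL/6J. H2-Aa was at 28.7% and 32.8% of Cd74 in DBA/2J, compared with 41.4% and 36.0% in C57BL/6J. H2-DMb1 and H2-Ob were also lower relative to Cd74 in both DBA/2J libraries, while H2-Ab1, H2-Eb1 and H2-DMa overlapped. These ratios are descriptions, with the same 2 animals per strain behind each.

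**Figure D3:**
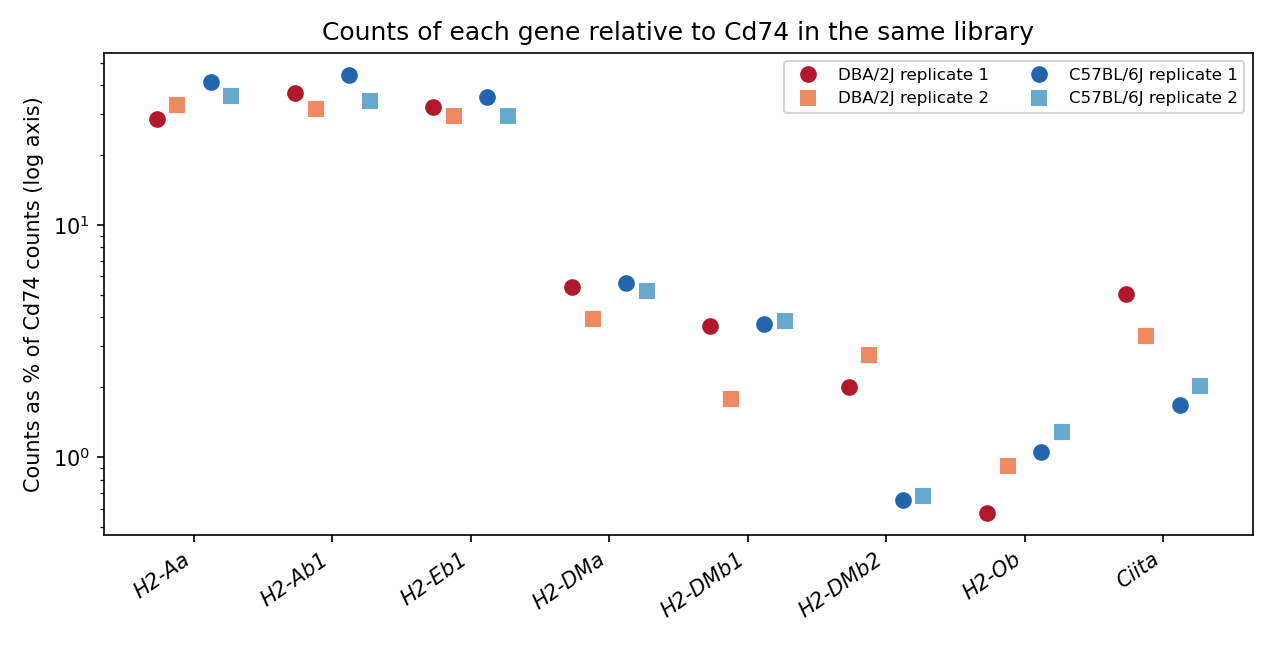
Counts of 8 class II genes as a percentage of Cd74 counts in the same library, on a log axis; circles and squares are replicates 1 and 2, red DBA/2J and blue C57BL/6J. Ciita and H2-DMb2 lie higher in both DBA/2J libraries, and the spread between the C57BL/6J replicates seen in CPM is small for most genes.

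Levels can be set against each other only per length of exon, in CPM per kilobase. In DBA/2J the order was Cd74 (25.3), H2-Ea-ps (10.2), H2-Eb1 (9.31), H2-Ab1 (7.49), H2-Aa (5.86), H2-DMa (1.02), H2-DMb1 (0.660), H2-DMb2 (0.498), Ciita (0.285) and H2-Ob (0.0845), as means of 2 libraries. Neighbours whose ranges overlapped were H2-Ea-ps with H2-Eb1, H2-DMa with H2-DMb1, and H2-DMb1 with H2-DMb2. In C57BL/6J the order was Cd74 (33.9), H2-Eb1 (13.6), H2-Ab1 (12.02), H2-Aa (10.1), H2-DMa (1.60), H2-DMb1 (1.22), H2-DMb2 (0.185), H2-Ob (0.171) and Ciita (0.163), with H2-Ea-ps at 0. There the ranges of H2-Eb1, H2-Ab1 and H2-Aa overlapped in turn, as did those of H2-DMa with H2-DMb1 and of H2-DMb2, H2-Ob and Ciita. For H2-Ea-ps, both the counts and the exon length lack the further bases of the longer GENCODE transcript, and its value per length rests on the 3 exons counted.

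Of the 14 genes of the factors that bind class II promoters or act with Ciita, 1 was higher and 1 lower in DBA/2J by edgeR. For this and each list below, the shares of all tested genes were 9.29% higher and 8.87% lower. Shares for the fits that left out a library are given above. The share of all tested genes at an unadjusted p below 0.05, at least as large as that by adjusted p, was not counted. List counts at an unadjusted p therefore have no background to be read against. Rfxank, a subunit of the RFX complex on the X box, had 219 and 284 counts in DBA/2J, compared with 455 and 458 in C57BL/6J (-0.94 ± 0.15, edgeR adjusted p = 0.0132). Ep300, a histone acetyltransferase, was higher by 0.47 ± 0.09 (edgeR adjusted p = 0.0254). The other RFX subunits Rfx5 and Rfxap had log2 differences of 0.16 and -0.24, and the NF-Y genes Nfya, Nfyb and Nfyc, whose product binds the Y box, 0.04, -0.71 and -0.11. Among these, edgeR adjusted p values ran from 0.0891 for Nfyb to 0.813 for Nfya. Carm1, a methyltransferase that acts with Ciita, had a log2 difference of 0.35 (edgeR adjusted p = 0.0828). The median over the 14 genes was 0.06. The Rfxank and Ep300 calls were lost without DBA/2J replicate 1 (adjusted p = 0.167 and 0.254) and without DBA/2J replicate 2 (adjusted p = 0.125 and 0.129).

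Upstream of Ciita, 0 of 9 genes of interferon gamma signalling were called by edgeR, with 1 higher and 2 lower at an unadjusted p below 0.05 and 0 by DESeq2. Irf1, a transcription factor induced by interferon gamma, had 2108 and 2467 counts in DBA/2J, compared with 5827 and 2151 in C57BL/6J, and so was high in C57BL/6J replicate 1 as the classical class II genes were. The kinase gene Jak2 and the receptor gene Ifngr2 had log2 differences of 0.36 and -0.38 (edgeR adjusted p = 0.0726 and 0.0719). Genes of this group called lower without C57BL/6J replicate 2 included Irf1 (edgeR adjusted p = 1.56e-05) and Ifngr2 (0.00926), and Jak2 was called higher on leaving out C57BL/6J replicate 1 (0.0223).

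Of 16 interferon gamma inducible genes, 1 was higher and 1 lower by edgeR. The guanylate-binding protein gene Gbp3 had 177 and 191 counts in DBA/2J, compared with 475 and 362 in C57BL/6J (-1.26 ± 0.20, edgeR adjusted p = 0.0134). Tap2, a peptide transporter subunit of the class I pathway, was higher by 0.50 ± 0.13 (edgeR adjusted p = 0.0494). Irgm1, an interferon-inducible GTPase gene, had a log2 difference of -0.48 (edgeR adjusted p = 0.0672). The chemokine genes Cxcl9 and Cxcl10 were highest in C57BL/6J replicate 1: Cxcl10 had 89 and 106 counts in DBA/2J, compared with 2231 and 169 in C57BL/6J (edgeR adjusted p = 0.0783). Both calls were lost without DBA/2J replicate 1 (adjusted p = 0.146 for Gbp3 and 0.348 for Tap2) and without DBA/2J replicate 2 (0.146 and 0.124), and 6 genes were lower without C57BL/6J replicate 2.

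Of 11 genes of antigen processing and class II turnover, 1 was higher and 0 lower by edgeR (1 higher and 2 lower both at an unadjusted p below 0.05 and by DESeq2). March8, a ubiquitin ligase that can remove class II and other membrane proteins from the cell surface, had 8298 and 9266 counts in DBA/2J, compared with 6269 and 7032 in C57BL/6J (0.33 ± 0.08, edgeR adjusted p = 0.0473). This call was kept without C57BL/6J replicate 2 (0.0132) and lost without C57BL/6J replicate 1 (0.0690), DBA/2J replicate 1 (0.319) or DBA/2J replicate 2 (0.246). The invariant chain protease genes Ctss and Ctsl had log2 differences of -0.21 and -0.26, and Ctsd and Sppl2a -0.29 and 0.20 (edgeR adjusted p from 0.0583 for Ctsd to 0.352 for Ctss). Levels of this group were near equal across libraries, with sums of 2033 and 1977 CPM in DBA/2J and 1999 and 1937 CPM in C57BL/6J.

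Of the 10 class II genes, 8 lie on chromosome 17, and 19 other tested genes start among them or within 200 kb. By edgeR 1 of these was higher and 4 were lower in DBA/2J, against 9.29% and 8.87% of all tested genes. The class I genes H2-K1 and H2-K2 had log2 differences of -2.12 ± 0.13 and -1.16 ± 0.30 (edgeR adjusted p = 7.55e-04 and 0.0494), and the ribosomal protein gene Rps18 and the prefoldin gene Pfdn6 -1.57 and -0.75. Class I genes are close copies of each other, as are Rps18 and its pseudogenes, so reads may be split or lost among copies. Tap2, which lies between H2-DMb1 and H2-Ob, was the one that was higher. The proteasome genes Psmb8 and Psmb9 and the transporter gene Tap1, interspersed with the class II genes, had log2 differences of 0.25, 0.30 and 0.00 and were not called. The calls of H2-K1 and Rps18 were still made in all 4 fits that left out a library (adjusted p up to 0.0308 and 0.0324), whereas Pfdn6, H2-K2 and Tap2 lost theirs without DBA/2J replicate 1 (adjusted p = 0.119, 0.255 and 0.348) or DBA/2J replicate 2 (0.0979, 0.268 and 0.124).

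**Figure D4:**
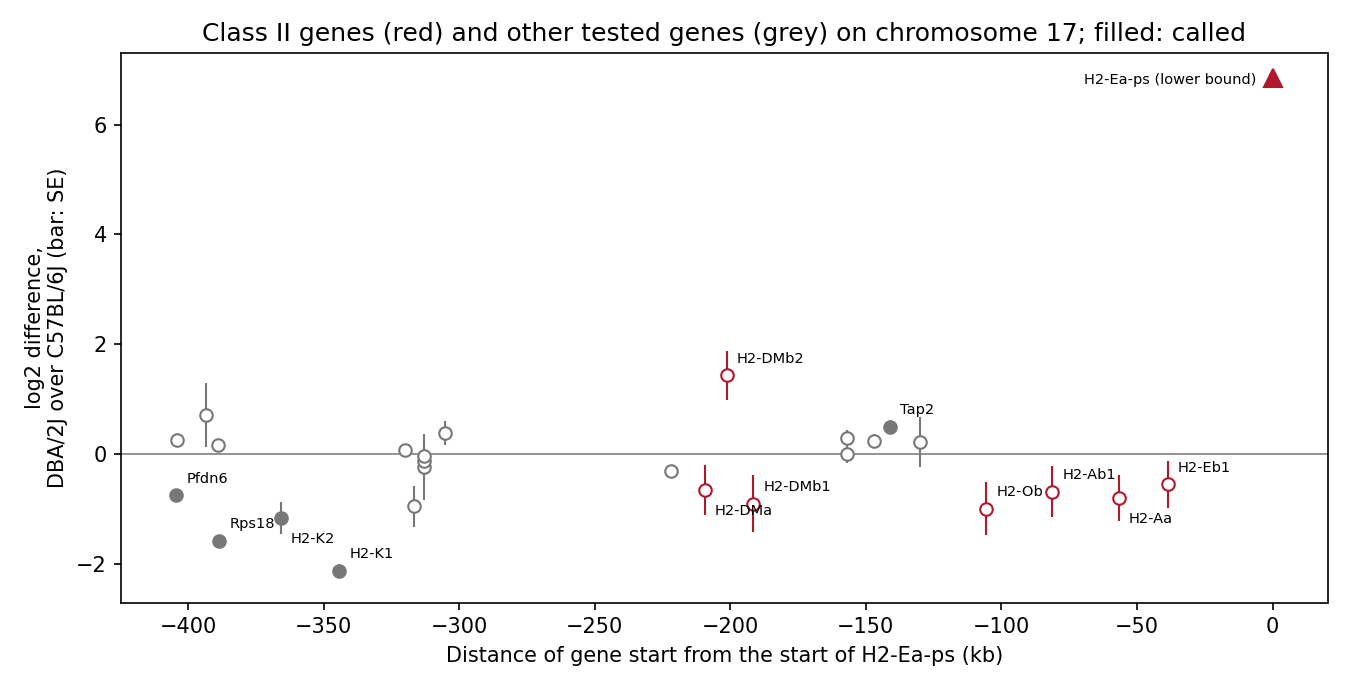
Log2 difference, DBA/2J over C57BL/6J, of tested genes on chromosome 17 by the distance of their start from that of H2-Ea-ps in kb (bar: SE). Class II genes are red and other genes grey, and filled symbols were called. H2-Ea-ps, labelled as a lower bound, is drawn at 6.85, the DBA/2J mean over the mean limit of 3 counts per C57BL/6J library. That value leaves out the spread of the DBA/2J libraries. Genes called lower lie around H2-K1, at -344 kb.

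Most markers of B cells and dendritic cells were low in number of reads. The 9 B cell genes summed to 3.54 and 4.28 CPM in DBA/2J and to 5.38 and 3.03 CPM in C57BL/6J, with 0 called by edgeR, 0 at an unadjusted p below 0.05 and 0 by DESeq2. The 9 dendritic cell genes summed to 11.4 and 12.1 CPM in DBA/2J and to 17.01 and 12.7 CPM in C57BL/6J. Among the 8 of them that were tested, 2 were lower and 0 higher (0 also at an unadjusted p below 0.05 and by DESeq2): Flt3, a growth factor receptor of dendritic cells and their precursors, with 1 and 4 counts in DBA/2J and 27 and 13 in C57BL/6J (edgeR adjusted p = 0.0437), and Xcr1, a chemokine receptor of cross-presenting dendritic cells, with 9 and 14 in DBA/2J and 43 and 33 in C57BL/6J (edgeR adjusted p = 0.0337). The Flt3 and Xcr1 calls held only without C57BL/6J replicate 2 and were lost without each of the other libraries (adjusted p up to 0.276 and 0.252). In the fit without C57BL/6J replicate 2, 3 dendritic cell genes were lower, these and Cd209a (edgeR adjusted p = 0.0352). Flt3 passed the filter on low counts through the C57BL/6J libraries alone, and Xcr1 would not have passed it on the DBA/2J libraries alone. Both calls rest on few counts. In bulk liver, fewer cells of a type and less RNA per cell cannot be told apart.

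The 12 Kupffer cell and macrophage genes summed to 237 and 235 CPM in DBA/2J and to 271 and 199 CPM in C57BL/6J, and 1 was lower and 0 higher (1 and 1 both at an unadjusted p below 0.05 and by DESeq2). That gene was Marco, a scavenger receptor, with 24 and 43 counts in DBA/2J and 365 and 133 in C57BL/6J (edgeR adjusted p = 0.0238, up to 0.199 without a DBA/2J library). The gene that DESeq2 called higher was Cd163, another scavenger receptor gene. Leaving out C57BL/6J replicate 2 made 3 of these 12 genes lower (Marco, C1qa and C1qb), and leaving out C57BL/6J replicate 1 made 2 higher (Csf1r and Cd163). Of 6 sinusoidal endothelial genes, Stab2 was higher (0.40, edgeR adjusted p = 0.0420) and Lyve1 lower (-1.16, edgeR adjusted p = 0.0177), with sums of 148 and 176 CPM in DBA/2J and 162 and 129 CPM in C57BL/6J. Leaving out a DBA/2J animal raised the adjusted p to as much as 0.284 for Stab2 and 0.193 for Lyve1, and neither was then called. The defining Kupffer gene Clec4f was close to equal, with 2407 and 3001 counts in DBA/2J and 2660 and 2459 in C57BL/6J.

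Markers of several cell types moved with the high class II level of C57BL/6J replicate 1. Against a ratio of 2.46 for the class II sum, the summed level in C57BL/6J replicate 1 over replicate 2 was 6.22 for 5 neutrophil genes, 2.23 for 8 T and NK cell genes, 1.98 for 5 monocyte genes and 1.78 for the B cell genes. It was 1.36 for the Kupffer cell and macrophage genes, 1.34 for the dendritic cell genes, 1.25 for the sinusoidal endothelial genes and 1.14 for the hepatocyte genes. The dendritic cell sum was mostly Zbtb46, a transcription factor gene, at 6.92 and 7.94 CPM in DBA/2J and 9.27 and 8.62 CPM in C57BL/6J, and without it the ratio was 1.90. Among the other dendritic cell genes it ran from 1.33 for Xcr1 to 5.33 for Cd209a. All 5 neutrophil and all 5 monocyte genes were highest in C57BL/6J replicate 1, as were 8 of 9 dendritic cell, 7 of 8 T and NK cell, 9 of 12 Kupffer cell and macrophage, 5 of 9 B cell, 3 of 6 sinusoidal endothelial and all 4 hepatocyte genes. This library was also highest for 2 of 4 cholangiocyte genes and for 0 of 5 stellate cell genes. The share of all tested genes that were highest in it was not counted, so these numbers have no background. The neutrophil genes summed to 1.72 and 2.39 CPM in DBA/2J and to 11.7 and 1.88 CPM in C57BL/6J, with Retnlg at 1 and 0 counts in DBA/2J and 38 and 0 in C57BL/6J. Monocyte sums were 4.71 and 4.70 CPM in DBA/2J and 7.69 and 3.89 CPM in C57BL/6J, and T and NK cell sums 0.726 and 1.41 CPM in DBA/2J and 2.95 and 1.32 CPM in C57BL/6J. By edgeR, 0 genes of these 3 lists were called, 0 had an unadjusted p below 0.05, and DESeq2 called 1 neutrophil gene lower, S100a9. In the fit without C57BL/6J replicate 2, edgeR called lower 4 neutrophil genes (S100a8, S100a9, Retnlg and Csf3r), 2 monocyte genes (Ccr2 and F13a1) and 1 T and NK cell gene (Trbc2). Retnlg was not tested with all 4 libraries, and it entered that fit through C57BL/6J replicate 1 alone. Calls in that fit rest on 1 C57BL/6J animal, and the share of all tested genes called there is given above. The part of these cells in the class II levels was not tested.

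The 5 stellate cell genes had higher sums in DBA/2J, at 193 and 245 CPM against 153 and 106 CPM in C57BL/6J. Between the C57BL/6J libraries their sum also moved with the class II genes, at 1.44 for replicate 1 over replicate 2, with all 5 genes higher in replicate 1. Of these, 1 was higher in DBA/2J and 0 lower (3 and 0 at an unadjusted p below 0.05, 2 and 0 by DESeq2), namely Reln (1.30, edgeR adjusted p = 0.00453), a call lost without DBA/2J replicate 1 (0.0615) or DBA/2J replicate 2 (0.0731). DESeq2 also called Dcn. Of the 5, 4 were higher without C57BL/6J replicate 1, namely Reln, Dcn, Colec11 and Pdgfrb. The 4 cholangiocyte genes summed to 10.3 and 10.2 CPM in DBA/2J and to 14.7 and 9.40 CPM in C57BL/6J. For these genes the sum in C57BL/6J replicate 1 over replicate 2 was 1.56. Of these and of the 4 hepatocyte genes, 0 were called by edgeR or DESeq2 and 0 had an unadjusted p below 0.05, while Sox9 was lower without C57BL/6J replicate 2 (edgeR adjusted p = 0.00883).

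**Figure D5:**
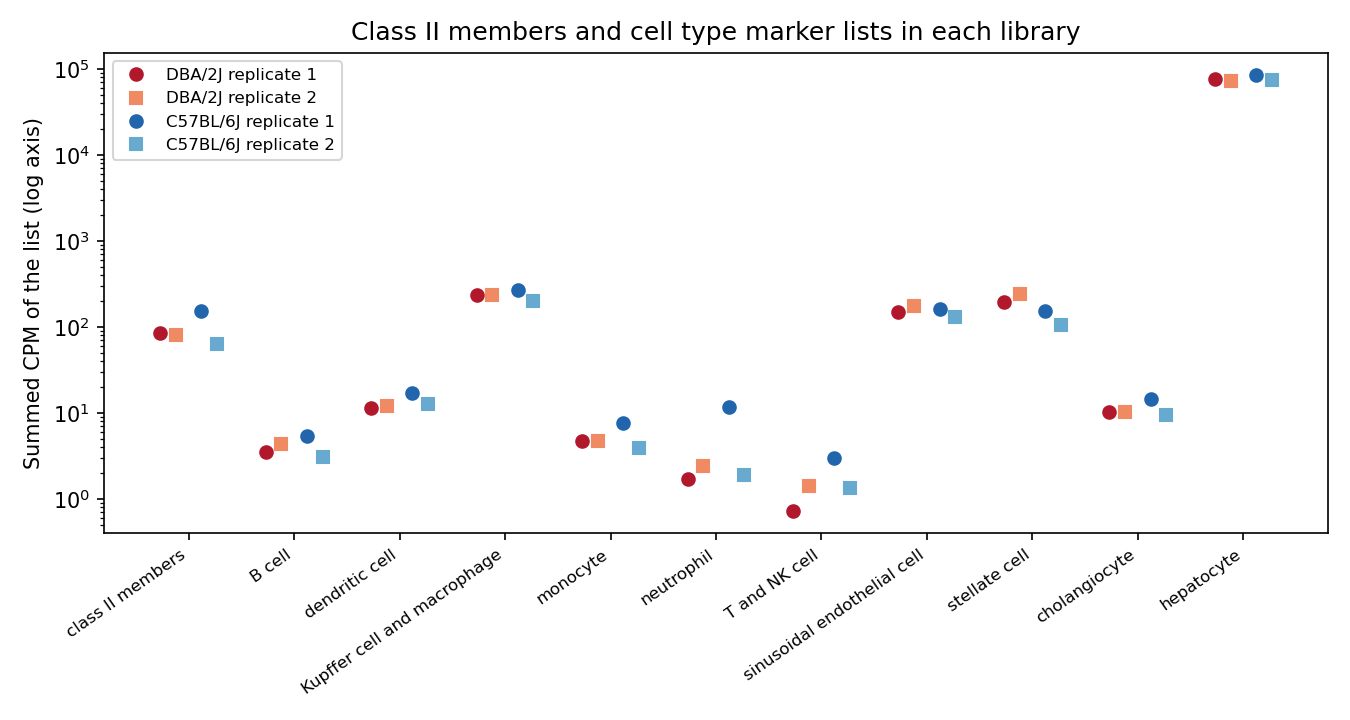
Summed level of the class II genes and of each cell type marker list in each library, in CPM on a log axis; circles and squares are replicates 1 and 2, red DBA/2J and blue C57BL/6J. C57BL/6J replicate 1 is the highest library for the class II genes (155 CPM) and for all marker lists other than the sinusoidal endothelial and stellate cell lists.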

How the data were processed

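The authors deposited 1 file per library with raw read counts for each gene symbol. Per the file headers, the authors made them with featureCounts 2.0.1 from exons in Ensembl release 88 for GRCm38, grouped by name, with the paired-end option and none for strand, multiple alignments or overlapping genes. The submitters' processing notes name STAR 2.4.0g1, featureCounts 1.5.2 and mm10. The labels state single-end reads of 100 bases. By that program's usual behaviour, reads that align to several places go uncounted. The reference derives from C57BL/6J, and class I and class II chains differ between haplotypes, so DBA/2J reads can fail to align. How many did was not tested here.

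Strain was taken from the labels. Counts were tested with edgeR 4.0.16 in R 4.3.3 (quasi-likelihood F test, legacy=FALSE, TMM scaling, filterByExpr with a minimum count of 10, strain as sole term), with Benjamini-Hochberg adjustment over all 15647 tested genes, and calls were made at an adjusted p below 0.05. Log2 differences are DBA/2J over C57BL/6J, and SEs were derived from the F statistic. The script was tested on simulated data. Alternatives were DESeq2 1.42.0, other scalings, no filter, the older quasi-likelihood form, a replicate block and each library left out. Shared windows were sought in GENCODE M21 transcripts. Intervals and floors cover counting error only.

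The members and lists were chosen with earlier results of these data known. By rule, the genes to name were the 10 members, up to 4 tested genes with the lowest adjusted p in every list, the genes behind counts of 5 or fewer that edgeR called with all 4 libraries, H2-Oa and H2-Eb2, and the 5 closest profiles. Cxcl10, Retnlg, Clec4f, Cd209a, C1qa, C1qb and the remaining RFX, NF-Y, proteasome and transporter genes were named after their values were seen. Of the listed markers, Tf was not matched to a symbol. One gene of the interferon gamma signalling list is not reported here by name. Genes behind counts at an unadjusted p, and behind some counts from the alternatives, are given as counts only, which is narrower than the rule. Several lists also name fewer genes than the rule gives, and no gene of the B cell list is named.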

Additional observations from a re-analysis of the deposited data

How the results depend on the processing

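H2-Ea-ps was called higher under every alternative, and with all 4 libraries no other scaling, filter, tool or model changed the sign or call of any class II gene. Leaving out C57BL/6J replicate 1 reversed H2-Aa to 0.041, H2-Ab1 to 0.28, H2-Eb1 to 0.34, H2-DMa to 0.10 and Cd74 to 0.27; C57BL/6J replicate 1 is the library above all others for these genes. Without C57BL/6J replicate 2 the values were -1.32 for H2-Aa, -1.26 for H2-Ab1, -1.10 for H2-Eb1, -1.16 for H2-DMa and -0.89 for Cd74. With each library left out, class II genes called higher ranged from 1 to 2 and lower from 0 to 6. In the same fits, all genes called ranged from 186 to 2450 higher and 106 to 2454 lower, pathway genes from 0 to 4 and 0 to 12, marker genes from 0 to 7 and 0 to 15, and chromosome 17 neighbours from 0 to 2 and 2 to 6. Without a filter on low counts, 809 genes were higher and 707 lower, with 0 pathway genes and 0 neighbours higher, 1 marker gene higher and 1 lower. Median-ratio scaling gave 1 pathway gene and 0 neighbours higher, where TMM gave 3 and 1. DESeq2 gave 7 pathway genes lower and 4 marker genes higher, where edgeR gave 2 and 2. With the replicate number as a block, 1 marker gene was higher and 2 lower and 0 neighbours were higher. The block changed no class II call. The replicate numbers are not said to pair animals, and deviations of same-numbered libraries correlated at -0.064 over 15647 genes. The causes of these shifts were not tested. With 10 to 54 counts per library, H2-Ob and H2-DMb2 are limited by depth.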

Other observations

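Outside the class II system, the profile of H2-Aa, H2-Ab1, H2-Eb1 and Cd74 over the 4 libraries was compared with that of 9398 tested genes averaging 5 CPM or more. The 5 closest, by root mean square difference of centred log2(CPM + 0.1), were Gm15675 (0.0624), the tight junction gene Cldn14 (0.0779), the uracil-DNA glycosylase gene Ung (0.0896), the transglutaminase gene Tgm1 (0.0906) and Clp1 (0.105), whose product acts in RNA 3′-end processing. Cldn14 had 756 and 823 counts in DBA/2J, compared with 1533 and 569 in C57BL/6J, and Tgm1 had 426 and 534 in DBA/2J, compared with 1088 and 384 in C57BL/6J. Like the 4 class II genes compared, these 5 were highest in C57BL/6J replicate 1, which follows from their choice by profile. They were not called by edgeR (adjusted p from 0.268 to 0.474). Likeness over 4 libraries is a description and shows no shared function.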
